A study of Mus musculus with 2 samples.

Results

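The genes described here are the EMT transcription factors, the DNA-binding proteins that drive epithelial-mesenchymal transition (EMT). The rule listed 7 symbols, Zeb1, Zeb2, Snai1, Snai2, Twist1, Twist2 and Prrx1, and 6 of them are among the 19465 features counted in both matrices. Twist2 was not analysed here. The data were Visium CytAssist spatial transcriptomics of mouse pancreatic tumors, and each group (labelled KPC-shZEB1 or KPC-shV) had 1 library. The assay is given as covering 2 tumors of each group, and the tumor behind a library is not stated. KPC cells are a mouse pancreatic cancer line. Both groups were orthotopic allografts, in which the cells were injected into the pancreas of mice. Cells of the KPC-shZEB1 group carried an shRNA against Zeb1, and those of the KPC-shV group were the vector control. Both stable lines were made with lentivirus and drug selection, so the injected tumor cells and their progeny carry the construct and the host's own fibroblasts, macrophages and vessels do not. The labels name no treatment of the mice, and the study gives gemcitabine for the tissues it used in this assay. The mice for such orthotopic models were C57BL/6J, BABL/c and NSG animals of 4 to 6 weeks, and both sexes were examined in the work as a whole. The study took the tissues of this assay from an experiment that it describes in immunocompetent mice. The strain and sex behind these libraries are not stated.

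EMT is the program by which epithelial cells loosen their junctions and gain migratory, mesenchymal features. ZEB and Snail family proteins are zinc finger repressors that bind E-box sequences in the promoters of junction genes and recruit corepressors, Twist proteins are basic helix-loop-helix factors, and Prrx1 is a paired-related homeobox factor of mesenchymal cells. The same genes are also known in normal stroma, such as fibroblasts, endothelium, smooth muscle and, for Zeb2, macrophages, so a tumor section can hold their RNA in several cell types. A Visium spot reads a small region with several cells, and no single-cell resolution is claimed below.

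In each barcoded spot every gene has a number of unique molecular identifiers (UMIs). KPC-shZEB1 had 2220 spots with 140493626 UMIs together and KPC-shV had 3552 spots with 172059528, and the libraries shared 1718 spot barcodes, which come from a fixed slide design. A level is the UMI count of a gene per 1000000 UMIs of the spots considered (CPM). With 1 library per group no replicate error could be given and nothing was tested, and every interval below is at the 95% level and covers counting error only. The probes differ between genes, so levels are compared between spots and libraries for 1 gene and never between genes. Fewer cells of a type and less RNA per cell cannot be told apart in such spots.

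Spots were sorted into tissue parts by the summed UMIs of marker lists. Acinar-rich spots had over 20% of their UMIs from pancreatic digestive enzyme genes, and numbered 760 in the library labelled KPC-shZEB1 (34.2% of its spots) and 251 in that labelled KPC-shV (7.07%). Among the remaining spots, the 10% with the highest share of a list over both libraries formed the epithelial-rich (214 and 263 spots in KPC-shZEB1 and KPC-shV, respectively), fibroblast-rich (93 and 384), macrophage-rich (140 and 337), endothelial-rich (108 and 369) and hypoxic-rich (9 and 468) spots. These classes overlapped. In the library labelled KPC-shV, 58.9% of the fibroblast-rich spots were also macrophage-rich, and in that labelled KPC-shZEB1, 32.3%, whereas 0 fibroblast-rich spots were epithelial-rich in either. Of the epithelial-rich spots, 50.2% in KPC-shV were also hypoxic-rich, and 2.8% in KPC-shZEB1. The part of this in library differences within the epithelial-rich class was not tested. Depth also moved with class. The median fibroblast-rich spot held 16512.5 UMIs in the library labelled KPC-shV and 42773 in that labelled KPC-shZEB1, and the part of depth in the levels below was not tested beyond leaving out shallow spots. A difference is called here when a class or library differed by at least 2-fold, which is 1 on the log2 scale. Beside each count of called factors, except at alternative settings, stands the share that passed the same rule among 15358 genes. These are the genes that reached 100 UMIs in each library.

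Zeb1 (ENSMUSG00000024238), the targeted gene, was counted in both libraries. It had 1516 UMIs, or 10.8 CPM, over all spots of the library labelled KPC-shZEB1 and 2137 UMIs, or 12.4 CPM, over those of its KPC-shV counterpart. On the log2 scale KPC-shZEB1 stood at -0.20 relative to KPC-shV (interval -0.30 to -0.11). The median of all genes was at -0.48 in this comparison, in which the acinar list took 240400 CPM of the former library and 16950 CPM of the latter. Outside acinar-rich spots the order turned, with 15.6 CPM and 12.7 CPM, respectively, and a log2 ratio of 0.30 (0.20 to 0.40) against a median of -0.01. Thus Zeb1 RNA outside acinar tissue was not lower in the library labelled KPC-shZEB1, and the groups are called by their labels throughout.

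Among these 6 classes, Zeb1 was highest in stromal spots and lowest in acinar spots of both libraries. In the library labelled KPC-shZEB1 it stood at 32.6 CPM in fibroblast-rich spots (27.4 to 38.6), 28.1 CPM in endothelial-rich spots (23.1 to 33.8) and 18.2 CPM in macrophage-rich spots (15.1 to 21.8). It fell to 7.65 CPM in epithelial-rich spots (6.33 to 9.17) and 3.34 CPM in acinar-rich spots (2.88 to 3.86). The intervals of the fibroblast-rich and endothelial-rich levels overlapped, and both lay above the epithelial-rich level. In the library labelled KPC-shV the order of the stromal classes differed, with 23.2 CPM in endothelial-rich spots (20.6 to 25.9), 20.3 CPM in macrophage-rich spots (17.4 to 23.5) and 19.1 CPM in fibroblast-rich spots (16.2 to 22.4). These 3 intervals overlapped their neighbours, so the order among the stromal classes was not resolved there. The lower classes of that library were the hypoxic-rich spots at 7.60 CPM (6.11 to 9.34), the epithelial-rich spots at 6.76 CPM (5.38 to 8.39) and the acinar-rich spots at 5.38 CPM (3.75 to 7.49), again with overlapping neighbours. Against the other spots outside acinar tissue, the log2 ratio of Zeb1 in fibroblast-rich spots was 1.15 (KPC-shZEB1) and 0.62 (KPC-shV), and in endothelial-rich spots it was 0.91 and 0.97.

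**Figure D1:**
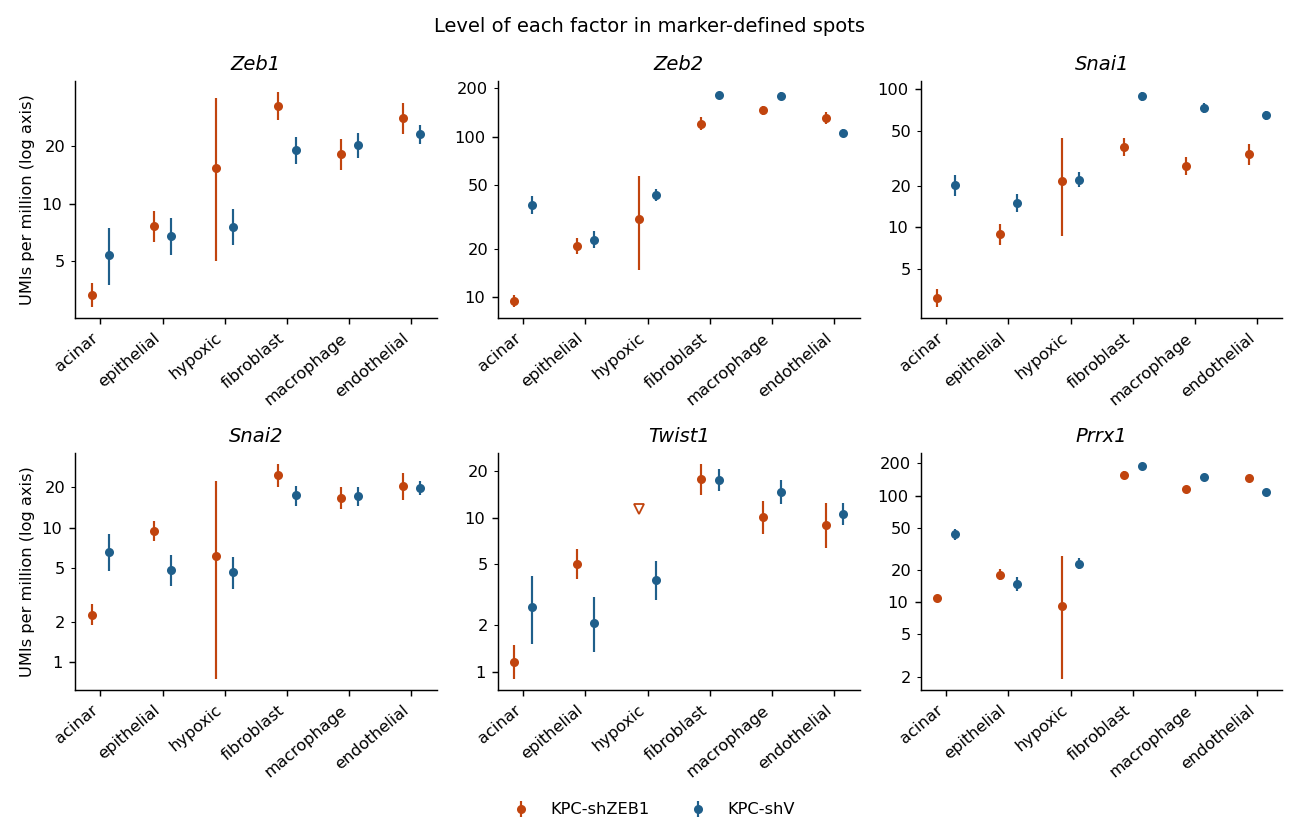
Level of each factor (UMIs per 1000000 UMIs, log axis) in acinar-, epithelial-, hypoxic-, fibroblast-, macrophage- and endothelial-rich spots of the library labelled KPC-shZEB1 (orange) and that labelled KPC-shV (blue). Points are levels and bars are exact Poisson intervals at the 95% level, and the open triangle is the upper limit for Twist1, which had 0 UMIs in the 9 hypoxic-rich spots of KPC-shZEB1. All 6 factors lie higher in fibroblast-rich than in epithelial-rich spots of both libraries.

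Zeb2, the paralog of Zeb1, was highest where macrophage or fibroblast genes were high. In the library labelled KPC-shZEB1 its level was 146 CPM in macrophage-rich spots (137 to 156), 132 CPM in endothelial-rich spots (121 to 143) and 121 CPM in fibroblast-rich spots (111 to 132), against 20.9 CPM in epithelial-rich spots (18.7 to 23.4). In the library labelled KPC-shV it was 181 CPM in fibroblast-rich spots (172 to 191), 180 CPM in macrophage-rich spots (171 to 189) and 106 CPM in endothelial-rich spots (101 to 112), against 22.9 CPM in epithelial-rich spots (20.3 to 25.8). The fibroblast-rich and macrophage-rich levels of KPC-shV could not be told apart, and the endothelial-rich level was lower than both. Acinar-rich spots separated the libraries, with 9.50 CPM in KPC-shZEB1 (8.70 to 10.35) and 37.5 CPM in KPC-shV (33 to 42.5). The acinar list took 60.3% and 39.9% of the UMIs of these spots, respectively, and its part in this difference was not tested.

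Snai1, which encodes Snail, had its highest level in fibroblast-rich spots of both libraries among these 6 classes. It reached 38.3 CPM there in the library labelled KPC-shZEB1 (32.7 to 44.7), where the endothelial-rich interval overlapped it, and 89.2 CPM in that labelled KPC-shV (82.8 to 96.1), where no other interval did. Macrophage-rich spots held 27.9 CPM (24.0 to 32.2) and 73.2 CPM (67.6 to 79.1), and endothelial-rich spots held 33.9 CPM (28.4 to 40.1) and 64.7 CPM (60.4 to 69.2), respectively. Epithelial-rich spots held 8.90 CPM (7.46 to 10.5) and 15.1 CPM (13 to 17.4). In each of these 4 classes the KPC-shV interval lay above that of KPC-shZEB1.

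Snai2, which encodes Slug, differed between the libraries in a direction that depended on the class. Its epithelial-rich level was 9.42 CPM in KPC-shZEB1 (7.94 to 11.1) and 4.86 CPM in KPC-shV (3.70 to 6.27), and the fibroblast-rich level was 24.5 CPM (20.02 to 29.8) and 17.3 CPM (14.6 to 20.5), respectively. Macrophage-rich spots were close, with 16.7 CPM (13.7 to 20.1) and 17.1 CPM (14.5 to 20.1). The log2 ratio of KPC-shZEB1 to KPC-shV was 0.95 (0.51 to 1.42) in epithelial-rich spots, 0.50 (0.12 to 0.88) in fibroblast-rich spots and -0.04 (-0.41 to 0.33) in macrophage-rich spots. In acinar-rich spots it was -1.55 (-2.06 to -1.02). Thus Snai2 stood higher in epithelial-rich and fibroblast-rich spots of the library labelled KPC-shZEB1 and lower in its acinar-rich spots. The acinar list took 60.3% of the UMIs of acinar-rich spots in KPC-shZEB1 and 39.9% in KPC-shV. A larger acinar share lowers the CPM of every other gene, and its part in the acinar-rich ratio was not tested.

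Twist1 was the least counted factor, with 774 and 843 UMIs in the libraries labelled KPC-shZEB1 and KPC-shV. Among the 6 classes it was highest in fibroblast-rich spots, at 17.9 CPM (14.1 to 22.4) and 17.7 CPM (14.9 to 20.9). Epithelial-rich spots held 5.04 CPM (3.98 to 6.30) and 2.06 CPM (1.33 to 3.04). The fibroblast-rich interval of the library labelled KPC-shZEB1 lay above those of the other classes, and the 9 hypoxic-rich spots held 0 UMIs, which allows up to 11.4 CPM.

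Prrx1, a homeobox gene of the fibroblast lineage, had the widest ratio from epithelial to stromal spots among the 6 factors in both libraries. It stood at 157 CPM in fibroblast-rich spots of KPC-shZEB1 (145 to 169) and 188 CPM in those of KPC-shV (179 to 198), against 18.1 CPM (16.1 to 20.4) and 14.9 CPM (12.8 to 17.3) in epithelial-rich spots. Acinar-rich spots held 10.9 CPM (10.0 to 11.8) in KPC-shZEB1 and 43.2 CPM (38.3 to 48.6) in KPC-shV. The acinar-rich spots of KPC-shV also held more of the stromal markers, with a fibroblast list sum of 6902 CPM against 1548 CPM in KPC-shZEB1. Their acinar share was lower, at 39.9% of UMIs against 60.3%, and the part of either in this difference was not tested.

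Counted over the classes, 3 of 6 factors (Zeb2, Twist1 and Prrx1) were at least 2-fold higher in fibroblast-rich than in other spots of both libraries, a rule that 8.82% of all genes passed. For macrophage-rich spots these were 2 of 6 (Zeb2 and Prrx1) against 10.0% of all genes, and for endothelial-rich spots the same pair against 8.73%. In epithelial-rich spots 2 of 6 factors (Snai2 and Prrx1) were at least 2-fold lower in both libraries, against 6.76% of all genes. The remaining epithelial-rich log2 ratios lay close to that limit, such as -1.18 and -0.96 for Zeb1 and -1.53 and -1.0 for Zeb2, the last just under 2-fold before rounding. Acinar-rich spots were at least 2-fold lower in both libraries for 1 factor, Zeb1 (log2 ratios -2.22 and -1.24), which is not particular to it, since 54.5% of all genes passed. In KPC-shZEB1 the acinar-rich log2 ratios of the 6 factors ran from -3.18 to -1.91, and in KPC-shV from -1.24 to 0.07. The medians of all genes in the same comparison were -2.24 and -1.14, so most genes shifted this way. In KPC-shZEB1 Snai2 (-3.18), Twist1 (-2.84), Snai1 (-2.75) and Zeb2 (-2.49) lay below the median, and Zeb1 (-2.22) and Prrx1 (-1.91) above it. In KPC-shV Zeb1 lay just below the median, and the other factors lay above it, from -0.93 for Twist1 to 0.07 for Prrx1. With acinar genes out of the total, KPC-shV had Zeb2 at 0.50, Snai1 at 0.24, Snai2 at 0.14, Twist1 at -0.20 and Zeb1 at -0.51. At that setting KPC-shZEB1 had Prrx1 at -0.58, Zeb1 at -0.90, Zeb2 at -1.16, Snai1 at -1.42, Twist1 at -1.51 and Snai2 at -1.85. In hypoxic-rich spots 1 factor, Snai2, was at least 2-fold lower in both libraries (-1.73 and -1.16), against 6.26% of all genes, and the first value rests on 2 UMIs in 9 spots.

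The epithelial list holds Epcam, Cdh1, Cldn4 and Cldn7, junction genes that these factors are known to repress. Keratins only were therefore used in its place. The log2 ratio of Zeb1 in epithelial-rich spots was then -1.02 in KPC-shZEB1 and -0.89 in KPC-shV, and that of Snai2 was -1.09 and -1.24. The direction was that of the full list for both genes.

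Levels were also followed along the whole range of the fibroblast share. From the lowest to the highest quintile of the fibroblast share, Zeb1 rose from 9.89 to 25.6 CPM in KPC-shZEB1 and from 7.37 to 19.3 CPM in KPC-shV. Prrx1 rose from 8.94 to 111 CPM and from 11.6 to 148 CPM, respectively, so its range was wider than that of Zeb1 in both libraries. Along the epithelial share the order was opposite. Zeb1 fell from 23.4 to 8.51 CPM in KPC-shZEB1 and from 21.6 to 6.67 CPM in KPC-shV. Snai1 fell from 32.6 to 9.42 CPM and from 83.1 to 15.8 CPM.

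**Figure D2:**
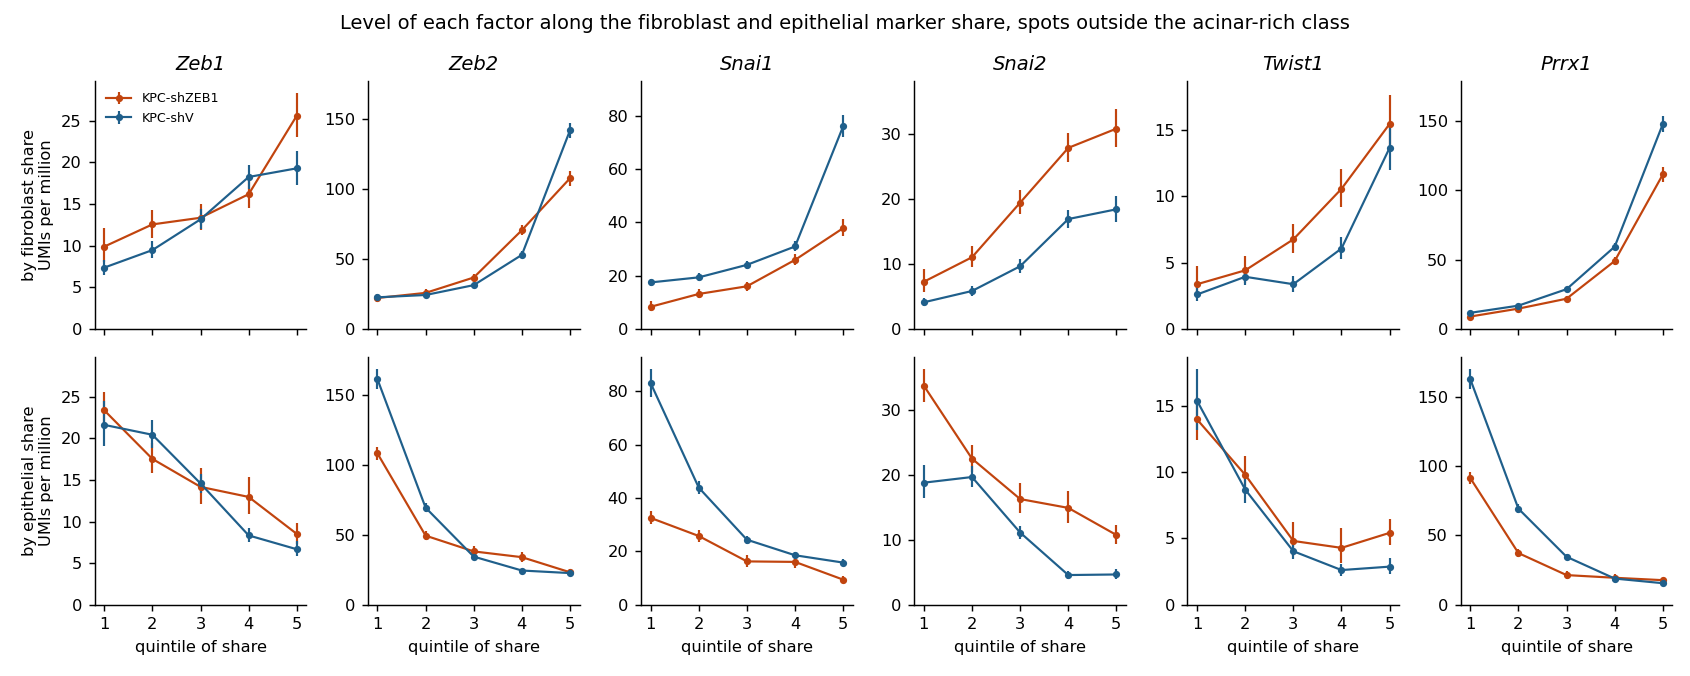
Level of each factor (UMIs per 1000000 UMIs) in quintiles of the fibroblast marker share (upper row) and the epithelial marker share (lower row), from the lowest (1) to the highest (5), outside acinar-rich spots. Points are levels and bars are exact Poisson intervals at the 95% level for KPC-shZEB1 (orange) and KPC-shV (blue). All 6 levels are higher in the highest than in the lowest fibroblast quintile and lower in the highest than in the lowest epithelial quintile, for example from 8.94 to 111 CPM for Prrx1 along the fibroblast share of KPC-shZEB1.

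Because macrophage, fibroblast and epithelial shares move together, each factor was next compared between the top and the bottom tertile of 1 share among spots of equal tertile in the others. At matched macrophage and epithelial shares, 3 of 6 factors were at least 2-fold higher in the top fibroblast tertile of both libraries, against 4.12% of all genes. These were Snai2 (log2 ratio 2.00, interval 1.55 to 2.45, in KPC-shZEB1 and 1.41, 0.97 to 1.84, in KPC-shV), Twist1 (1.76, 1.10 to 2.43, and 1.46, 0.76 to 2.17) and Prrx1 (1.92, 1.59 to 2.25, and 2.12, 1.86 to 2.38). With a split at the median in place of tertiles Twist1 fell to 0.51 in KPC-shV and was no longer past 2-fold in both libraries. For Snai2 the tertile ratios were wider than those between fibroblast-rich and other spots, 0.28 and 0.86. The value of 0.28 in KPC-shZEB1 depended on the class. It was -0.96 in the 20 spots past the 95th percentile and 0.80 with spots of 1 class only. Zeb1 was at 0.20 (-0.14 to 0.53) and 1.02 (0.64 to 1.39), so its fibroblast step was within counting error of 0 in KPC-shZEB1. Snai1 was at 1.26 and 0.77, and Zeb2 at 0.72 and 0.48.

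At matched fibroblast and epithelial shares, Zeb2 was higher in the top macrophage tertile by 1.16 (0.92 to 1.41) in KPC-shZEB1 and 1.02 (0.84 to 1.21) in KPC-shV on the log2 scale. It was the 1 factor of 6 past 2-fold in both libraries, against 4.27% of all genes, and it fell just under 2-fold with a median split (0.97 and 0.90) and, in KPC-shV, with spots of at least 20000 UMIs (0.89). Zeb1 did not move beyond counting error, with 0.21 (-0.18 to 0.61) and 0.06 (-0.26 to 0.37). Prrx1, which was 3.33-fold and 4.25-fold higher in macrophage-rich spots before matching, was at 0.54 and 0.19 on the log2 scale after it. Few spots lay at opposite ends of the fibroblast and macrophage shares, which limits both sets of matched ratios. The top fibroblast and bottom macrophage tertiles shared 9 spots in KPC-shZEB1 and 13 in KPC-shV. Zeb2 stood there at 67.8 CPM (43.4 to 100.8) and 42.1 CPM (27.2 to 62.1). The bottom fibroblast and top macrophage tertiles shared 32 and 19 spots, with Zeb2 at 41.1 CPM (32.9 to 50.9) and 65.8 CPM (39.6 to 102.7).

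The endothelial share was matched on all 3 other shares. The log2 ratio of Zeb1 was then 0.47 (0.26 to 0.69) in KPC-shV and 0.16 (-0.13 to 0.44) in KPC-shZEB1, below the 0.97 and 0.91 before matching, and the latter interval held 0. Prrx1 was at 1.01 in KPC-shZEB1 and 0.04 in KPC-shV, and 0 factors passed 2-fold in both libraries. In the top epithelial tertile, at matched fibroblast and macrophage shares, all 6 factors had log2 ratios below 0 in both libraries, with intervals that left out 0. The share of all genes with this sign and interval was not computed, so this is not read as particular to the factors. Snai2 alone was at least 2-fold lower in both libraries, at -1.03 (-1.29 to -0.77) and -1.80 (-2.11 to -1.50), against 3.33% of all genes. With keratins only it stood at -0.74 and -0.85. Zeb1 was at -0.90 (-1.17 to -0.63) and -1.44 (-1.69 to -1.19), and at -0.64 and -0.77 with keratins only.

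The hypoxic share was also compared at matched shares of the other 3 lists, which uses tertiles and so does not rest on the 9 hypoxic-rich spots of KPC-shZEB1. Snai2 was lower in the top hypoxic tertile of KPC-shV, at -1.38 (-1.70 to -1.07), and at -0.09 (-0.41 to 0.23) in KPC-shZEB1. Snai1 was higher in that tertile of KPC-shV, at 0.68 (0.51 to 0.84), and at 0.29 (-0.03 to 0.60) in KPC-shZEB1, an interval that held 0. Before matching, Snai1 was lower in hypoxic-rich than in other spots of KPC-shV, at -0.39 (-0.57 to -0.21), so its direction there changed with matching. In KPC-shZEB1 that unmatched ratio was 0.06 (-1.26 to 1.10). The log2 ratios of the other 4 factors ran from -0.34 to 0.21 over both libraries.

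**Figure D3:**
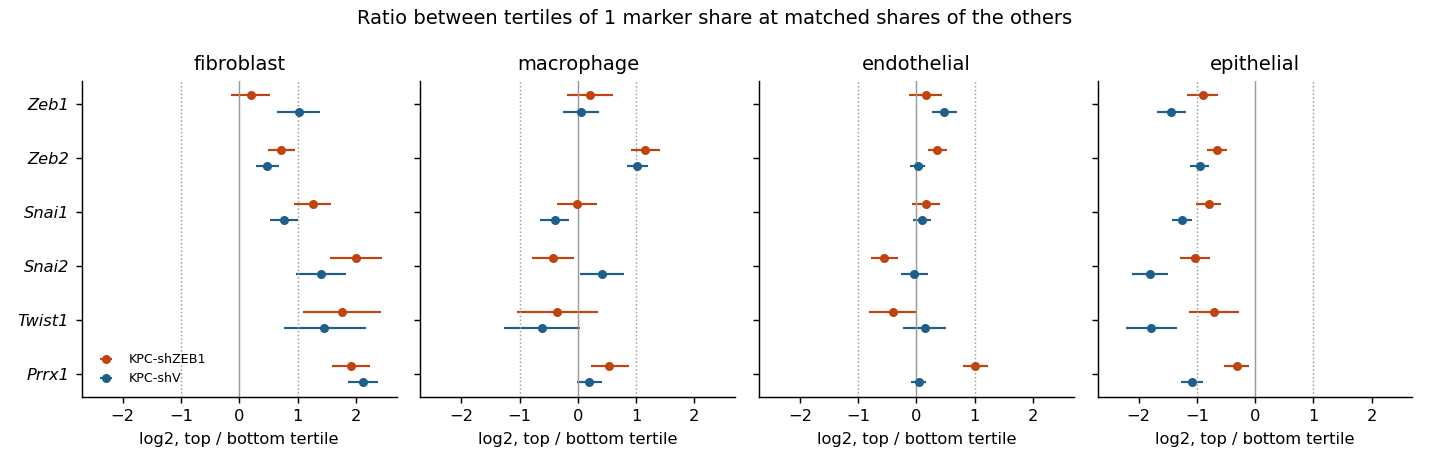
Log2 ratio of each factor between the top and bottom tertile of the fibroblast, macrophage, endothelial or epithelial marker share among spots matched on the other shares, with intervals at the 95% level for KPC-shZEB1 (orange) and KPC-shV (blue). Solid lines mark 0 and dotted lines mark 2-fold. Snai2, Twist1 and Prrx1 pass 2-fold for fibroblasts in both libraries and Zeb2 for macrophages, and all epithelial ratios lie below 0.

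The libraries were then compared at equal tissue mix, over 27 strata of fibroblast, macrophage and epithelial tertiles outside acinar-rich spots. The mix is equal in these shares only, and the hypoxic, lymphocyte, neutrophil and other shares were not matched. The log2 ratio of Zeb1, KPC-shZEB1 over KPC-shV, was 0.06 (-0.05 to 0.17), with a median of -0.03 over all genes. The interval of the target gene thus held 0. Snai1 was 1.73-fold lower in KPC-shZEB1, with -0.79 (-0.88 to -0.70) on the log2 scale, and Prrx1 was 1.43-fold lower, with -0.51 (-0.57 to -0.45). Snai2 was 1.56-fold higher, with 0.64 (0.53 to 0.75), and Twist1 1.28-fold higher, with 0.35 (0.20 to 0.51). Zeb2 was 1.2-fold lower, with -0.27 (-0.32 to -0.21), but higher by 0.27 (0.22 to 0.32) outside acinar-rich spots without the adjustment, so its direction changed with the adjustment.

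Without that adjustment the values differed. Over all spots, Snai1 was the 1 factor of 6 at least 2-fold lower in KPC-shZEB1, at 13.8 and 28.2 CPM and -1.03 (-1.11 to -0.95), against 9.21% of all genes and a median of -0.48. Outside acinar-rich spots it was at -0.46 (-0.54 to -0.38). Outside acinar-rich spots, Snai2 was the 1 factor at least 2-fold higher, at 20.4 and 9.94 CPM and 1.04 (0.94 to 1.13), against 4.54% of all genes. Over all spots it was at 0.44 (0.34 to 0.53). The marker shares of the libraries differed outside acinar-rich spots too, with log2 ratios of 0.62 for the macrophage list, 0.32 for the fibroblast list and -0.21 for the epithelial list. Among lists that were not matched, the ratio was 3.42 for B and plasma cells, 2.25 for T cells and 1.77 for the acinar list. It was -1.26 for both the hypoxic and the neutrophil list. With 1 library per group, the knockdown, the tumor and the section cannot be told apart.

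**Figure D4:**
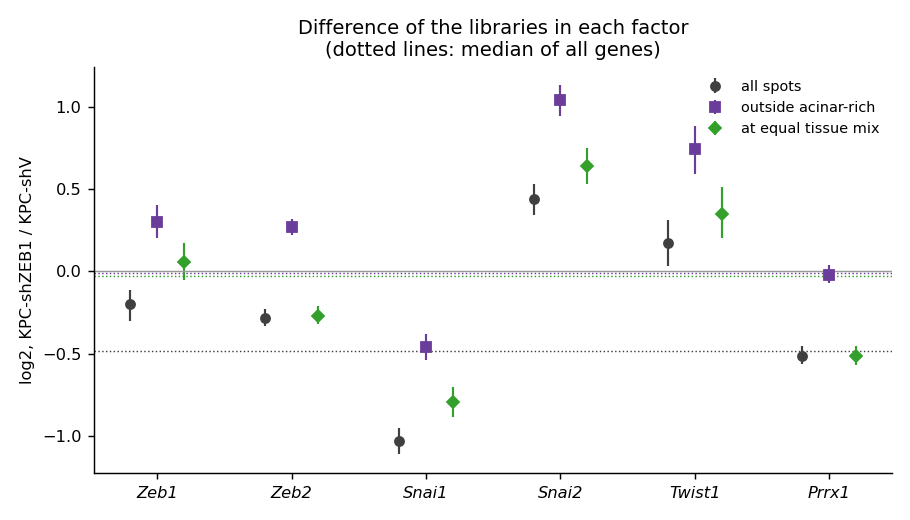
Log2 ratio of each factor, KPC-shZEB1 over KPC-shV, over all spots (circles), outside acinar-rich spots (squares) and at equal mix of fibroblast, macrophage and epithelial tertiles (diamonds), with intervals at the 95% level. Dotted lines are the medians of all genes, -0.48, -0.01 and -0.03. Zeb1 lies at -0.20, 0.30 and 0.06, Snai1 below 0 and Snai2 above 0 in all 3.

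To read the factors where stromal markers were scarce, spots in the top epithelial tertile and in the bottom fibroblast, macrophage and endothelial tertiles were taken, 49 of KPC-shZEB1 and 458 of KPC-shV. Zeb1 had 14 UMIs and 4.24 CPM (2.32 to 7.12) in the former and 137 UMIs and 5.98 CPM (5.02 to 7.07) in the latter, a log2 ratio of -0.50 (-1.40 to 0.30). At this depth no difference in Zeb1 was detectable, and the interval runs from a fall of over 2-fold to a small rise. Snai1 was lower there in KPC-shZEB1, with 5.15 CPM (3 to 8.25) and 14.3 CPM (12.8 to 16.0) and a log2 ratio of -1.48 (-2.27 to -0.77). Snai2 was higher, with 6.36 CPM (3.94 to 9.72) and 3.62 CPM (2.89 to 4.49) and a log2 ratio of 0.81 (0.05 to 1.52). For scale, 12 genes of retina, testis, kidney, heart and brain that these tissues should lack were counted at 0.427 to 1.73 CPM over all spots, apart from Myl7 at 5.46 and 3.24 CPM.

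The share of spots with a UMI was compared at equal depth. After thinning each spot to 5000 UMIs, which left out 4 and 185 spots, 6.72% of the spots labelled KPC-shZEB1 (5.72% to 7.85%) and 5.67% of those labelled KPC-shV (4.92% to 6.51%) held a Zeb1 UMI, compared with 42.7% and 37.6% unthinned. In another draw the shares were 5.32% and 5.58%, so their order was not resolved. The 12 genes that these tissues should lack were at 0.135% to 2.08% after the same thinning, with median depths before it of 59957.5 and 52544.5 UMIs, and as their probes are others they give a scale and no test. Snai1 was at 7.63% (6.56% to 8.81%) in KPC-shZEB1 and 15.8% (14.6% to 17%) in KPC-shV, and at 45% and 62.5% unthinned. All these shares are over all spots, of which 34.2% in KPC-shZEB1 and 7.07% in KPC-shV were acinar-rich. Thinning equalises depth and not this tissue mix.

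Marker lists of further cell types placed some factors in other spots. Mural-rich spots, with genes of pericytes and smooth muscle, were at least 2-fold higher in both libraries for 2 of 6 factors, against 3.26% of all genes. These were Snai1 (1.16 and 1.5 on the log2 scale in KPC-shZEB1 and KPC-shV) and Twist1 (1.47 and 1.56). Of the fibroblast-rich spots, 28% in KPC-shZEB1 and 46.1% in KPC-shV were also mural-rich. No mural ratio at matched fibroblast share was made, so the 2 parts were not told apart. Snai2 in mural-rich spots reached 58.6 CPM (53.4 to 64.2) in KPC-shZEB1, its highest level among all classes of that library, and 18.2 CPM (15.9 to 20.8) in KPC-shV. In KPC-shV the mesothelial-rich spots, with genes of the serosal lining, held the highest level of Snai2, 26.4 CPM (24.0 to 29.1), and of Zeb1, 27.7 CPM (25.2 to 30.4), the latter with an interval that overlapped that of endothelial-rich spots. Mesothelial-rich spots of KPC-shZEB1 held 12.2 CPM (10.3 to 14.4) and 14.3 CPM (12.2 to 16.6), respectively. This list also marked epithelial tissue, since 36.9% of the epithelial-rich spots of KPC-shZEB1 and 9.89% of those of KPC-shV were mesothelial-rich. It therefore does not place these factors in serosal cells. T cell-rich spots passed for 1 factor, Zeb2 (1.08 and 1.90), against 6.12% of all genes. B and plasma cell-rich spots passed for 2 factors, Zeb2 (1.54 and 1.62) and Prrx1 (2.16 and 1.78), against 10.2%. These spots overlapped stroma, since 78.5% of the fibroblast-rich spots of KPC-shZEB1 and 22.9% of those of KPC-shV were also B and plasma cell-rich, and the parts were not told apart.

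**Figure D5:**
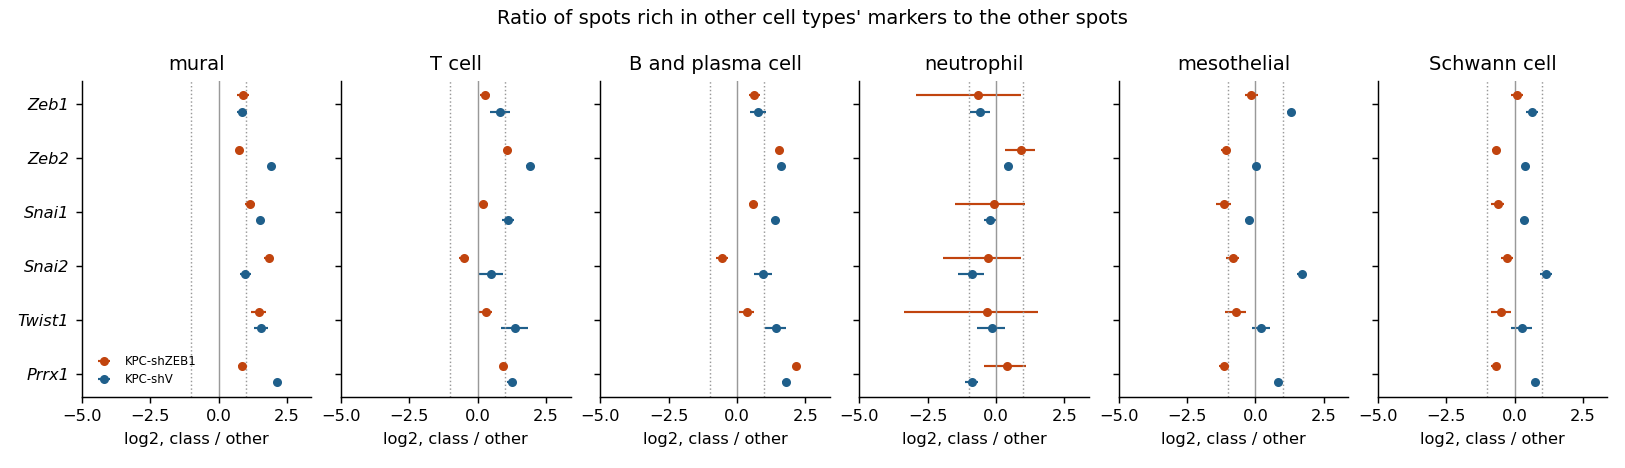
Log2 ratio of each factor between spots rich in mural, T cell, B and plasma cell, neutrophil, mesothelial or Schwann cell markers and the other spots outside acinar tissue, with intervals at the 95% level for KPC-shZEB1 (orange) and KPC-shV (blue). Solid lines mark 0 and dotted lines mark 2-fold. Mural-rich ratios lie above 0 for all 6 factors in both libraries, from 0.75 to 2.13.

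The genes most like each factor were sought across tissue strata, the 27 tertile strata and the acinar-rich spots, of which 21 in KPC-shZEB1 and 22 in KPC-shV had at least 10 spots. Likeness is the lower of the libraries' Pearson correlations of log2(CPM + 1) among 11063 genes. It is a description, since the strata of a library share their section and differ in depth. For Zeb1 the closest were Zcchc24 (0.86), Sfxn5 (0.81) and Fbln1 (0.80), the last a matrix protein gene. For Zeb2 they were Abca1 (0.95), a cholesterol transporter, C5ar1 (0.94), a complement receptor of myeloid cells, and Hexa (0.93), a lysosomal enzyme. Prrx1 had Ccdc80 (0.93), Itm2a (0.91) and Tgfb1i1 (0.90).

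The Snail and Twist genes had other neighbours. Snai1 was closest to Nfatc4 (0.90), B4galt2 (0.89) and Medag (0.88), Snai2 to Ank (0.87), Cdr2l (0.86) and Lgals1 (0.86), and Twist1 to Eno2 (0.82), Mpdz (0.78) and Msrb3 (0.78). No factor was among the 3 closest genes of another. The nearest was Snai2, in place 14 of the genes compared with Twist1, with correlations of 0.71 in KPC-shZEB1 and 0.73 in KPC-shV. Zeb1 correlated with Zeb2 at 0.62 and 0.47 and with Prrx1 at 0.33 and 0.28.

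The sequence that ZEB and Snail proteins are known to bind, the E-box core CAGGTG, was searched on both strands (CACCTG is the same core on the other strand) in RefSeq promoter windows of GRCm38.p6. It was present in 20.2% of all 32851 windows of the same length, and in at least 1 window of 22.6% of 27025 genes. Of the 7 factors, 5 matched the table, and Zeb1 and Snai2 did not. Snai1 was the 1 factor of 5 with the core. A link of this match to the level of Snai1 in the libraries was not tested. The 250 bases before the start of Snai1 are shown with the core in capitals (chr2:167537945-167538194, plus strand).
Snai1: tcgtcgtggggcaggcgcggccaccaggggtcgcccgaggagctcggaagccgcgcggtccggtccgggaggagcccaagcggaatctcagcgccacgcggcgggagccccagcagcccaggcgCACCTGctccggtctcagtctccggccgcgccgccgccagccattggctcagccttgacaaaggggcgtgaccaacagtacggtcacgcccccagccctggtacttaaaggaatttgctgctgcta

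Among epithelial junction genes, the known targets of such repressors, 8 of the 9 in the table held the core. Matches before the start of 5 of them are shown to let the sites be compared, each with the core in capitals and read 5′ to 3′ on the strand of its gene. They are at chr17:57062071-57062100 (plus strand, Crb3), chr17:87635780-87635809 (plus, Epcam), chr11:69965312-69965341 (plus, Cldn7), chr5:134946931-134946960 (minus, Cldn4) and chr13:100552549-100552578 (minus, Ocln).
Crb3: cccctgtgcttaCACCTGctcatttccgcc
Epcam: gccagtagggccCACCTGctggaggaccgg
Cldn7: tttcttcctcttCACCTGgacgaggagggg
Cldn4: ctttaactgcagCACCTGtggccgcccttt
Ocln: ctaggggctcggCAGGTGggtcccagcgca
A match is a description of the letters and not a measured site. For the other lists the core was found in 2 of 4 epithelial splicing and identity regulators, 1 of 6 mesenchymal genes, 0 of 9 corepressors, 0 of 5 TGF-beta inputs and 0 of 8 other EMT-linked transcription factors.

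The genes around the factors were read as lists outside acinar-rich spots, where 4.54% of all genes were at least 2-fold higher and 1.95% at least 2-fold lower in KPC-shZEB1. Of 11 junction genes 0 were higher and 1 was lower, Cldn4, a claudin of tight junctions, at -1.78 (-1.84 to -1.72), and the median of the list was -0.27. Cdh1, which encodes E-cadherin and is named here for its known repression by these factors and not by size, stood at 413 and 398 CPM, with 0.06 (0.04 to 0.07). Of 9 epithelial splicing and identity regulators 1 was higher, Grhl3 (1.43), and 2 were lower, Grhl2 (-1.46) and Ovol1 (-1.14), with a median of -0.58. Grhl2 and Ovol1 encode epithelial transcription factors that oppose EMT. At equal tissue mix Grhl2 was at -1.06, Ovol1 at -0.57, under 2-fold, Grhl3 at 1.95 and Cldn4 at -1.4, and Cdh1 was at 0.33. Cldn4 and Cdh1 belong to the epithelial list whose tertiles help set this mix. Their values at equal mix are therefore not independent of the matching, and no result is read from them. The medians given for the lists are without the equal-mix adjustment. Grhl3 was counted at 2.61 CPM in KPC-shZEB1 and 0.966 CPM in KPC-shV, the latter at the level of genes that these tissues should lack.

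The mesenchymal list did not move as 1 group. Of 12 genes 2 were higher, S100a4 (1.58) and Cdh2, which encodes N-cadherin (1.04), and 0 were lower, with a median of 0.09. At equal tissue mix S100a4 was at 1.34 and Cdh2 at 0.79, under 2-fold. Lox, at -0.69 without the adjustment, was at -1.17 with it, past 2-fold lower. Among 8 TGF-beta inputs, the ligands, receptors and Smads that are known to induce these factors, Tgfb2 was higher (1.03) and 0 were lower. Of 14 other EMT-linked transcription factors Klf8 was higher (1.15) and Sox4 lower (-1.28). Klf8 stood at 1.45 and 0.652 CPM, within the all-spot range of genes that these tissues should lack (0.427 to 1.73 CPM, Myl7 apart). Its ratio is therefore that of a gene near the floor. At equal tissue mix Tgfb2 was at 0.71 and Klf8 at 0.85, both under 2-fold, and Sox4 was at -1.05. Id3 went from -0.56 without the adjustment to -1.09 with it, past 2-fold lower. Of 10 corepressors, such as CtBP and HDAC proteins that ZEB and Snail recruit, 0 passed in either direction, with a median of -0.40.

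The positions of 5 factors in GENCODE M21 on GRCm38/mm10 are as follows. Zeb2 lies on chromosome 2 from 44983632 to 45117395 (minus strand), and Snai1 on chromosome 2 from 167538195 to 167542814 (plus). Snai2 lies on chromosome 16 from 14705852 to 14709385 (plus), Twist1 on chromosome 12 from 33957671 to 33959829 (plus), and Prrx1 on chromosome 1 from 163245119 to 163313710 (minus). All are protein-coding genes, and the counts are per gene and not per exon.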

How the data were processed

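Per the submitters' processing notes, reads of the probe-based libraries (Visium CytAssist) went through Space Ranger 2.0.1 with the mm10 build. The deposited values are UMI counts of each gene in each spot, not normalized by the authors, with 1 library per group. Levels in CPM and log2 ratios were computed here from these counts with Python 3.11.15, numpy 2.4.6 and scipy 1.17.1, and drawn with matplotlib 3.10.9. Intervals at the 95% level are exact Poisson for levels, exact conditional binomial for ratios, exact binomial for shares and Mantel-Haenszel with a normal approximation for matched and equal-mix ratios. UMIs were pooled over spots of a class, and every deposited spot was kept. Marker lists, classes, alternatives and the rule for named genes were chosen with earlier results of these data known, as were the factors. The rule names the 6 factors, the 3 genes most like each and at most 4 genes per pathway list past 2-fold. Lox and Id3 were added for their ratios at equal tissue mix. Of the list genes, Prss1, Try5, Cpb1, Pnliprp1, Amy2b, Krt18 and Ca9 were not used. No doublet caller was run, since a spot is a region, and images and spot positions were not used. On simulated data (19465 genes, 500 spots in each library) the ratio of libraries gave 200 of 200 changed genes the right direction. For the fibroblast tertiles 397 of 400 pairs of a changed gene and a library did. The planted changes were of at least 2-fold, in genes with higher levels than Twist1 and Snai2 in KPC-shV. Counting error was the only noise, and ratios were centred on the unchanged genes. Smaller changes, lower levels and differences between sections were thus not checked. The changes planted for the tertiles followed the fibroblast share only. Whether matching separates it from the macrophage and epithelial shares was therefore not checked. Alternatives were other class thresholds, totals, weights, spot filters, strata, lists and thinning.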

Additional observations from a re-analysis of the deposited data

Results flagged for a closer look

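Of 72 comparisons of a factor between spots rich in a marker list and the other spots, 9 had opposite signs in the libraries with both intervals leaving out 0. The share of all genes that pass this rule was not computed, so the count is not read as particular to these factors. The difference between the libraries was not tested, with 1 library per group. Values are log2 ratios, first KPC-shZEB1 and then KPC-shV. Snai2 was opposite in 5 of the lists, with -0.31 and 0.84 in macrophage-rich spots, -0.51 and 0.48 in T cell-rich spots, -0.54 and 0.96 in B and plasma cell-rich spots, -0.83 and 1.69 in mesothelial-rich spots, and -0.27 and 1.16 in Schwann cell-rich spots. Prrx1 was at -1.14 and 0.83 in mesothelial-rich spots and at -0.69 and 0.74 in Schwann cell-rich spots. In Schwann cell-rich spots Zeb2 was at -0.67 and 0.40 and Snai1 at -0.62 and 0.35. The company of these spots differed between the libraries. Mesothelial-rich spots held 9988 CPM of the epithelial list and 2240 CPM of the fibroblast list in KPC-shZEB1, and 6386 and 6846 CPM in KPC-shV. Schwann cell-rich spots held 8244 and 4153 CPM in KPC-shZEB1, and 6140 and 9751 CPM in KPC-shV. The part of this difference in the opposite signs was not tested.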

How the results depend on the processing

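No paired analysis was possible because the labels give no replicate numbers and each group has 1 library. The log2 ratio of Zeb1 between the libraries, -0.20 over all spots, became 0.30, 0.28 or 0.30 without spots over 20%, 5% or 40% acinar UMIs, 0.17 with acinar genes out of the total, 0.28 with median-of-ratios scaling and 0.00 when spots were weighted equally. Apart from equal weighting, these settings change by construction how far acinar RNA enters the total. Without the 5% of spots with the highest level the ratio was -0.21, the lowest value of all settings. At equal mix the ratio ran from -0.01 to 0.08. Over the 6 factors 12 of 48 alternative library ratios turned sign, in 3 factors (Zeb1, Zeb2 and Twist1), and for Snai1, the one past 2-fold, 3 of 8 stayed past it, with a range of -1.21 to -0.44. Counts of factors past 2-fold in both libraries changed as follows, and the cause was not tested. The shares of all genes at these alternative settings were not computed, so the changed counts have no background to be read against. The epithelial-rich count of 2 became 4 at the 80th or 95th percentile, with spots of 1 class only or with the mean of spots. The hypoxic-rich count of 1 became 2 at the 80th percentile and with the mean of spots, and 0 with percentiles within each library or spots of at least 20000 UMIs. The endothelial-rich count of 2 became 0 with spots of 1 class only. The acinar-rich count of 1 became 0 with acinar genes out of the total, the mean of spots or a threshold of 5%, and 2 with spots of at least 20000 UMIs. Of 709 alternative spot-class ratios 27 turned sign, 0 of them among ratios past 2-fold. Of 300 matched ratios 27 did, again 0 past 2-fold, and 70 of 90 alternative values of ratios past 2-fold stayed past it. Among the matched calls, Twist1 for fibroblasts in KPC-shV fell to 0.51 with a median split and 0.99 with tertiles within each library. Snai2 in the top epithelial tertile of KPC-shZEB1 fell short with a median split (-0.72), keratins only (-0.74) and spots of at least 20000 UMIs (-0.71). Zeb2 for macrophages was at 0.97 and 0.90 with a median split and at 0.89 in KPC-shV with spots of at least 20000 UMIs. The 9 hypoxic-rich spots of KPC-shZEB1 and the low counts of Twist1 limit those values.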
